A study of Mus musculus with 8 samples.

Results

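Ribosome-protected fragments recovered with an antibody to the survival motor neuron protein SMN were compared with fragments recovered by RiboLace from mouse brain at postnatal day 5. The comparison used 5 of the 8 libraries of the study, namely the 3 SMN immunoprecipitates and the 2 RiboLace libraries, chosen by their labels. The SMN immunoprecipitates came from Smn+/-; SMN2tg/0 mice, which are phenotypically normal littermates. The RiboLace libraries came from Smn-/-; SMN2tg/0 mice, whose genotype is null for mouse Smn and which model spinal muscular atrophy (SMA). All animals were of the Taiwanese SMA model on the FVB background and carried the human SMN2 transgene on 1 allele, with 2 copies of SMN2. Libraries of the same group are described as biological replicates in the labels. Genotype and capture method changed together between the groups and cannot be told apart, and age-matched RiboLace libraries of the control genotype were not used here. The 1 IgG immunoprecipitate, from Smn+/-; SMN2tg/0 brain, and the 2 polysome libraries, from Smn-/-; SMN2tg/0 brain, are given as side values.

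The preparations also differed before capture. For the immunoprecipitates, nuclei and mitochondria were spun out, the lysate was digested with RNase I, ribosomes were pelleted, and complexes were caught on protein G beads. For RiboLace the lysates were cleared by 2 centrifugations. Each gene was represented by 1 protein-coding transcript, the one with the highest library-scaled read sum, which gave 21874 coding genes of the 45578 genes in the table. Of these, 4013 had enough reads to be tested, which required about 75.02 CPM (read counts scaled to a common library total) in at least 2 libraries. Genes with reads mostly in 1 group, SMN immunoprecipitates or RiboLace, could pass that filter through that group's libraries alone. Lower genes below that level in every SMN library included Gm10800, Hmgb1, mt-Nd2, mt-Nd4l and Hsd3b2. Higher genes below it in both RiboLace libraries included Syne1, Nbas and Mb21d2. The direction of such genes was in part set by the filter.

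SMN is the protein that is scarce in SMA, and its best known role is in loading Sm proteins onto small nuclear RNAs during spliceosome assembly. A fraction of SMN also associates with ribosomes, and the immunoprecipitation is meant to isolate the footprints of those ribosomes. RiboLace uses a bead-bound puromycin analogue, which resembles the end of a charged transfer RNA, to catch ribosomes that are elongating. A footprint is the stretch of messenger RNA that a ribosome covers and protects from the nuclease, so long coding regions give more footprints than short ones at equal ribosome density.

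The libraries were shallow. Reads on coding genes numbered 138239, 133295 and 237760 in the SMN immunoprecipitates and 47846 and 39375 in the RiboLace libraries, so that a floor of 3 reads stood at 12.6 to 22.5 CPM in the SMN libraries and at 62.7 and 76.2 CPM in the RiboLace libraries. Reads counted after PCR are not independent molecules, so intervals and floors cover counting error only. SMN replicate 2 stood apart from its group: the chi-square of its counts per gene was 3.18 against replicate 1 and 3.26 against replicate 3, while replicates 1 and 3 differed by 1.34. The RiboLace pair differed by 1.05 per gene, near sampling noise, and was kept as 2 samples because the labels call them biological replicates. The Pearson correlation of log2 CPM was 0.73 for the RiboLace pair and 0.90 for SMN replicates 1 and 3. It was 0.77 and 0.78 for SMN replicate 2 with replicates 1 and 3. Both measures depend on depth, which was lower for RiboLace, so they do not rank the agreement of the 2 groups. Coding genes took 69.4, 70.1 and 67.9% of the reads on 1 transcript per gene in the SMN immunoprecipitates and 68.5 and 66.8% in the RiboLace libraries. That difference of 1.51 percentage points gave p = 0.4 in a two-sided exact permutation test, in which 5 libraries cannot reach below 0.2.

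Brain identity was checked with marker genes. All 10 neuron markers passed the filter, and their summed level was 8858, 10703 and 9123 CPM in the SMN immunoprecipitates and 10664 and 10379 CPM in the RiboLace libraries. The 8 markers of the oligodendrocyte lineage and the 8 of astrocytes and radial glia passed as well, and none of these 26 genes passed the test. Microglia left few reads, since 1 of 6 markers passed the filter and Aif1 had no read in any of the 5 libraries. Of 6 endothelial and mural markers 3 passed the filter and 0 passed the test.

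Smn1 was looked at first, as the gene that differs between the genotypes. It had 161, 99.5 and 143 CPM in the SMN immunoprecipitates, from 22, 13 and 34 reads, against 41.6 and 0 CPM in the RiboLace libraries, from 2 reads and 0 reads. IgG gave 29.5 CPM and the polysome libraries 28.5 and 31.2 CPM. The groups did not overlap, and the ratio of summed reads was 5.91 with a 95% exact counting interval of 1.57 to 49.8. Smn1 did not pass the test across all genes (log2 fold change 2.53, SE 0.83, adjusted p = 0.129), but without SMN replicate 2 it did, at a log2 fold change of 2.58 and an adjusted p of 0.0146. The Smn+/- IgG library, with 6 reads, was as low as the Smn-/- polysome libraries, with 51 and 77 reads. Smn1 thus had its highest levels in the anti-SMN captures and does not separate the 2 genotypes over all 8 libraries. Against the 1 IgG library its log2 fold change was 2.16, and with all SMN libraries kept it was not called.

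The footprints of SMN immunoprecipitates were richer in messages with long coding regions, among them spectrins, ankyrins, nonmuscle myosins, dynein and collagens. They were poorer in messages of the mitochondrial genome, in globins and in other short messages. By edgeR's quasi-likelihood test with Benjamini-Hochberg adjustment, 27 genes were higher in the SMN immunoprecipitates (0.673% of the 4013 tested) and 31 were lower (0.772%) at an adjusted p under 0.05. Without adjustment, 354 genes were higher and 291 lower at p under 0.05, where chance gives 201 in all. In all 58 called genes, every SMN library lay on one side of both RiboLace libraries, as it did in 1561 (38.9%) of all 4013 tested genes, and a called gene is likely to be of that kind by its selection. The median log2 fold change of all tested genes was 0.07, and every log2 fold change below is SMN immunoprecipitate over RiboLace.

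The number of calls depended on single libraries. Without SMN replicate 2, 189 genes were higher (7.98%) and 253 lower (10.7%) of 2367 tested, and these included 26 of the 27 and 30 of the 31 genes named above, which was every one of them still tested. Without SMN replicate 3, 16 were higher and 27 lower. Without RiboLace replicate 1 the counts were 4 higher and 12 lower, and without RiboLace replicate 2 they were 5 higher and 7 lower. No called gene changed direction in any of these fits.

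Coding length separated the genes in both directions. The 27 higher genes had a median coding length of 6693 bases and the 31 lower genes 681 bases, against 1572 bases for all genes tested. Of the 27 higher genes, 17 had coding regions of 5000 bases or more, and of the 31 lower genes, 22 had coding regions under 1000 bases. The median log2 fold change rose through the length classes. It was -0.60 for 401 genes under 500 bases, -0.38 for 734 genes from 500 to under 1000 bases and -0.01 for 1313 genes from 1000 to under 2000 bases. It was 0.40 for 1233 genes from 2000 to under 5000 bases and 0.99 for 332 genes of 5000 bases or more. In the longest class 307 of 332 tested genes (92.5%) lay above 0, with 17 called higher and 0 called lower. That class holds 696 genes in all, and those not tested had too few reads.

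Reads on coding regions of 5000 bases or more made up 12.3, 11.1 and 11.6% of coding reads in the SMN immunoprecipitates and 5.81 and 6.06% in the RiboLace libraries. The groups did not overlap, with a mean of 11.6 ± 0.612% (SD, n = 3) for SMN and 5.93 ± 0.179% (SD, n = 2) for RiboLace, a ratio of 1.96. The exact permutation test gave p = 0.2 for the difference of 5.72 percentage points, the smallest value that 5 libraries allow. The IgG library stood at 12.5%, just above the SMN range, and the polysome libraries at 6.26 and 6.33%, near RiboLace. At the other end, coding regions under 500 bases took 7.21, 8.49 and 7.37% of coding reads in the SMN immunoprecipitates and 12.4 and 11.96% in the RiboLace libraries. IgG was at 6.93% and the polysome libraries 9.18 and 9.04% in that shortest class.

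**Figure D1:**
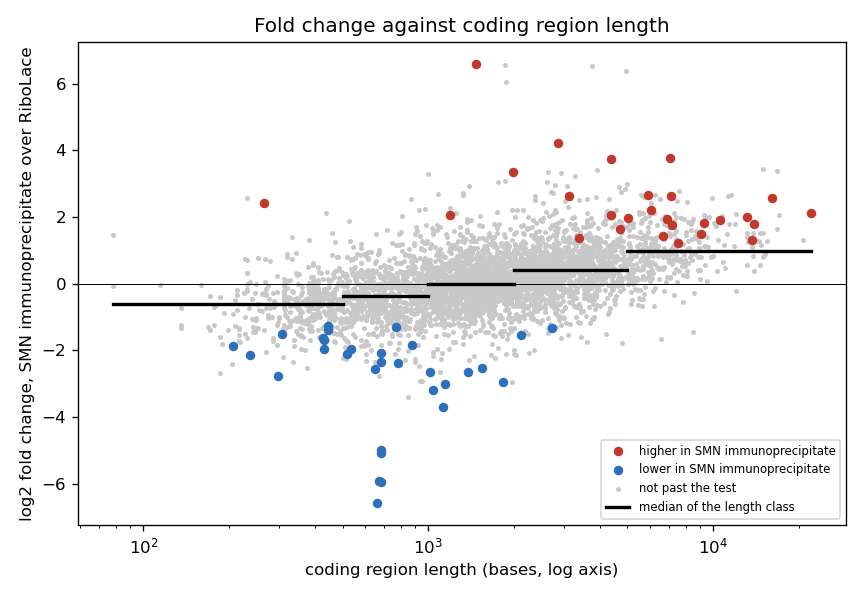
Log2 fold change, SMN immunoprecipitate over RiboLace, of each tested gene against its coding length in bases (log axis), with called genes coloured. Genes called higher lie mostly to the right of 5000 bases and genes called lower mostly to the left of 1000 bases.

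Across genes, the log2 fold change followed the log2 coding length with a Pearson r of 0.49 and a Spearman rho of 0.52 over 4013 genes. These genes share the same 5 libraries and are not independent replicates. Length outside the coding region had r near 0, with r = 0.03 for the 3′ UTR over 3921 genes and r = 0.00 for the 5′ UTR over 3871 genes. Against IgG, which shares the SMN libraries, the log2 ratio of the same genes had r = -0.16 with coding length. The part of capture, nuclease digestion and genotype in the length relation was not tested.

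Large proteins of the submembrane and cytoplasmic skeleton were among those with higher footprints. Of a list of 15 spectraplakins, spectrins, ankyrins and other giant linkers, all 15 were tested, 8 were higher and 0 lower. Among the 8 were Huwe1, a ubiquitin ligase, and Dync1h1, a motor protein, both described below. All 15 had a positive log2 fold change, with a median of 1.78 beside 0.07 for all genes. The list's median coding length was 10293 bases. Tested genes of 5000 bases or more had a median of 0.99, and 92.5% of them lay above 0. Spectrins form the elastic mesh under the plasma membrane, and ankyrins tie that mesh to channels and adhesion molecules. Sptbn1, beta-II spectrin, had 4399.7, 2305 and 5508 CPM in the SMN immunoprecipitates and 624 and 695 CPM in the RiboLace libraries. Every SMN library exceeded both RiboLace libraries, with the lowest value in SMN replicate 2, and the log2 fold change was 2.63 (SE 0.38) with an adjusted p of 0.000175. Ank2, ankyrin-B, was counted on a transcript with 3117 coding bases, outside the longest length class. It had 1133, 1776 and 1707 CPM in the SMN immunoprecipitates and 249 and 248 CPM in the RiboLace libraries. Its RiboLace libraries were nearly identical, and its log2 fold change was 2.62 (SE 0.39) with an adjusted p of 0.000243. IgG gave 5667 CPM of Sptbn1 and 1653 CPM of Ank2, above all SMN libraries for Sptbn1 and within their range for Ank2.

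Spectraplakins are giant proteins that link actin filaments to microtubules and guide growing axons. Dst, dystonin, had 797, 452 and 965 CPM in the SMN immunoprecipitates and 83.2 and 174 CPM in the RiboLace libraries, a log2 fold change of 2.56 (SE 0.49) with an adjusted p of 0.00337. Loss of dystonin causes a hereditary sensory neuropathy. Macf1, its close relative, had 1199, 498 and 1569 CPM in the SMN immunoprecipitates and 208 and 298 CPM in the RiboLace libraries. SMN replicate 2 was again the lowest of the 3 for both genes, and Macf1 passed at a log2 fold change of 2.12 (SE 0.46) and an adjusted p of 0.0150. Macf1, at 22062 bases, had the longest coding region among the called genes.

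Syne1, which encodes the nuclear envelope protein nesprin-1 and was counted on a transcript with 2850 coding bases, had 139, 359.8 and 197 CPM in the SMN immunoprecipitates and 20.8 and 0 CPM in the RiboLace libraries. With 1 RiboLace read in all, its ratio of summed reads was 19.4 with a 95% exact counting interval of 3.40 to 771, and its adjusted p was 0.0160. Huwe1, a large ubiquitin ligase, had 914, 490.0 and 759 CPM in the SMN immunoprecipitates and 166 and 199 CPM in the RiboLace libraries, with a log2 fold change of 1.99 (SE 0.43) and an adjusted p of 0.0137. Not every member separated the groups. Sptan1, alpha-II spectrin, the partner of beta spectrin, had 2573, 735 and 2571 CPM in the SMN immunoprecipitates and 769 and 769.7 CPM in the RiboLace libraries. SMN replicate 2 fell below both RiboLace libraries there, and the adjusted p was 0.109. Without that replicate 12 of the 14 members still tested were higher, Sptan1 among them. In that fit 7.98% of all genes were higher, and 85 of 251 genes with coding regions of 5000 bases or more.

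Of 15 tested kinesins and dyneins 9 had a positive log2 fold change, and 1 was called, Dync1h1, which the giant linker list also counts. Dync1h1, the heavy chain of cytoplasmic dynein, which carries cargo back along axons and is mutated in a form of spinal muscular atrophy of the legs, had 4341, 4923 and 3452 CPM in the SMN immunoprecipitates and 1227 and 1242 CPM in the RiboLace libraries. The log2 fold change was 1.78 (SE 0.31) with an adjusted p of 0.00128, and the median of the 15 genes was 0.28. Myh10, nonmuscle myosin IIB of neurons, had 2134, 1462 and 1363 CPM in the SMN immunoprecipitates and 312 and 397 CPM in the RiboLace libraries. Its log2 fold change was 2.22 (SE 0.37) with an adjusted p of 0.000837. Myh9, nonmuscle myosin IIA, had 753, 1041 and 403 CPM in the SMN immunoprecipitates and 125 and 99.3 CPM in the RiboLace libraries. The SMN libraries varied more for Myh9 than for Myh10 but stayed above RiboLace, with a log2 fold change of 2.67 (SE 0.51) and an adjusted p of 0.00341.

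Dbn1 was the gene with the smallest adjusted p among those higher, and it was not a long one, with 1983 coding bases. It encodes drebrin, an actin-binding protein of growth cones and dendritic spines. Dbn1 had 2763, 2251 and 3633 CPM in the SMN immunoprecipitates and 291 and 273 CPM in the RiboLace libraries, a log2 fold change of 3.35 (SE 0.38) with an adjusted p of 8.62e-06. The IgG library had 4118 CPM, above all SMN libraries, and the polysome libraries 338 and 302 CPM, near RiboLace. The other 18 tested actin genes and actin-binding partners did not pass the test, and the list's median was -0.41.

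Microtubule proteins had few calls. Map1a, a microtubule-associated protein of mature dendrites, had 1864, 2672 and 1808 CPM in the SMN immunoprecipitates and 811 and 695 CPM in the RiboLace libraries, with a log2 fold change of 1.48 (SE 0.33) and an adjusted p of 0.0160. It was the 1 gene called of 11 microtubule-associated proteins, whose median was 0.46. Apc2, a neuronal relative of the Wnt regulator Apc that stabilises microtubules, had 1067, 835 and 965 CPM in the SMN immunoprecipitates and 249 and 248 CPM in the RiboLace libraries, with a log2 fold change of 1.94 (SE 0.38) and an adjusted p of 0.00408. The tubulins themselves, among the most abundant messages of newborn brain, did not pass. The 4 tested alpha-tubulin genes had a median of 0.06 and the 7 beta-tubulin genes a median of -0.03, and near-identical copies of these genes may share reads. Nefh, the heavy neurofilament subunit, had 132, 406 and 143 CPM in the SMN immunoprecipitates and 41.6 and 0 CPM in the RiboLace libraries. With 2 RiboLace reads its ratio of summed reads was 8.99, with a 95% exact counting interval of 2.43 to 75.2, and its adjusted p was 0.0712.

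Collagens, which are made by the fibroblast-like cells of meninges and vessels more than by neurons, formed the other group with several higher genes. Of 24 collagen and matrix genes 20 were tested, 3 were higher and 0 lower, and the median log2 fold change was 1.19. The tested genes had a median coding length of 5067 bases. The length classes of 2000 to under 5000 bases and of 5000 bases or more had medians of 0.40 and 0.99. Col3a1, the fibrillar collagen of soft tissues, had 1104, 1294 and 1292 CPM in the SMN immunoprecipitates and 83.2 and 99.3 CPM in the RiboLace libraries. The 3 SMN libraries, replicate 2 included, lay close together, and the log2 fold change was 3.75 (SE 0.45) with an adjusted p of 1.09e-05. Col1a1, a chain of type I collagen, had 468, 1531 and 1107 CPM in the SMN immunoprecipitates and 229 and 273 CPM in the RiboLace libraries, with a log2 fold change of 2.05 (SE 0.47) and an adjusted p of 0.0187. The replicates of Col1a1 spread widely, replicate 1 being the lowest. Col4a1, a chain of the basement membrane collagen of vessels, had 468, 582 and 562 CPM in the SMN immunoprecipitates and 104 and 174 CPM in the RiboLace libraries. Its log2 fold change was 1.97 (SE 0.45) with an adjusted p of 0.0188. Partner chains did not pass: Col1a2 had 336, 681 and 369 CPM in the SMN immunoprecipitates and 104 and 372 CPM in the RiboLace libraries, with an adjusted p of 0.320. In bulk tissue, fewer cells of a type and less RNA per cell cannot be told apart. The 6 endothelial and mural markers summed to 409, 513 and 302 CPM in the SMN immunoprecipitates and 333 and 149 CPM in the RiboLace libraries, and Pecam1 had no RiboLace read. The part of such cells in the collagen result was not tested.

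The remaining higher genes were of mixed function. Trio, Lrp1, an endocytic receptor, Wdfy3, a scaffold of selective autophagy, Fasn, the fatty acid synthase, and Prrc2b all had coding regions above 5000 bases, and their log2 fold changes were between 1.21 and 1.91. Nbas, a protein of retrograde Golgi transport, had 146, 214 and 151 CPM in the SMN immunoprecipitates and 0 and 24.8 CPM in the RiboLace libraries. With 1 RiboLace read, its ratio of summed reads was 14.4 with a 95% exact counting interval of 2.51 to 575, and its adjusted p was 0.0303. Mb21d2 had 95.01, 91.9 and 109 CPM in the SMN immunoprecipitates and no read in the RiboLace libraries. That made it at least 2.97-fold higher, counted against a floor of 3 reads over the RiboLace group, with an adjusted p of 0.0463. Peg3, an imprinted zinc finger gene, had 687, 804 and 512 CPM in the SMN immunoprecipitates and 249 and 174 CPM in the RiboLace libraries, with a log2 fold change of 1.63 (SE 0.41) and an adjusted p of 0.0394. It was the 1 gene called of 16 tested imprinted genes, whose median was 0.06.

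The last 3 higher genes had coding regions under 5000 bases. Snhg11, a small nucleolar RNA host gene counted on a model with 264 coding bases, had 329, 781 and 365 CPM in the SMN immunoprecipitates and 83.2 and 99.3 CPM in the RiboLace libraries, with a log2 fold change of 2.41 (SE 0.56) and an adjusted p of 0.0205. SMN replicate 2 was the highest of the 3. Cx3cl1, the neuronal chemokine fractalkine, had 380.0, 429 and 348 CPM in the SMN immunoprecipitates and 83.2 and 99.3 CPM in the RiboLace libraries, with a log2 fold change of 2.07 (SE 0.50) and an adjusted p of 0.0303. Wdr6 passed at a log2 fold change of 1.37 (SE 0.35) and an adjusted p of 0.0485. Of 29 tested chromatin regulators with long coding regions, 27 had a positive log2 fold change and the median was 0.70, and Prrc2b was the 1 called. Their median coding length was 7326 bases, and the length class of 5000 bases or more had a median of 0.99. The calls nearest the threshold were lost often, that of Prrc2b in 9 of 16 alternatives, that of Wdr6 in 8 of 16, that of Fasn in 7 of 16 and that of Mb21d2 in 7 of 12.

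**Figure D2:**
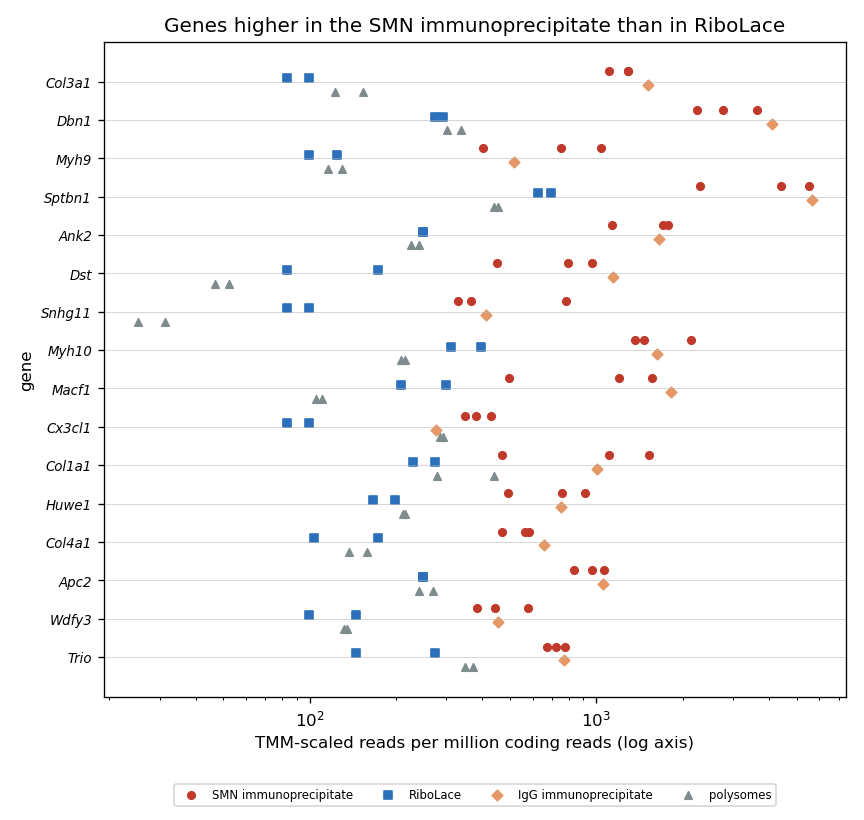
CPM per library (log axis) of 16 genes called higher in the SMN immunoprecipitates, with a point for each SMN, RiboLace, IgG and polysome library. The 3 SMN points lie above both RiboLace points in each gene, and the IgG point lies with or near the SMN points.

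Messages of the mitochondrial genome were lower almost throughout. The mitochondrial genome encodes 13 subunits of the respiratory chain and of the ATP synthase, which are translated by mitochondrial ribosomes and not by the cytosolic ones. Of these, 12 were tested, 10 were lower and 0 higher, the median log2 fold change was -2.47, and no SMN library overlapped a RiboLace library in any of the 12, beside 38.9% of all tested genes. The filter was passed through the RiboLace libraries alone by mt-Nd2, mt-Nd4l and mt-Atp8, which favours that direction for them. Summed over the 13 genes, the level was 1725, 1822 and 1514 CPM in the SMN immunoprecipitates and 8502 and 11198 CPM in the RiboLace libraries. The IgG library had 3050.0 CPM and the polysome libraries 8102 and 8046 CPM.

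Among complex IV subunits, mt-Co1 had 519, 697 and 512 CPM in the SMN immunoprecipitates and 3077 and 3526 CPM in the RiboLace libraries, a log2 fold change of -2.52 (SE 0.29) with an adjusted p of 9.92e-06. All SMN libraries were far below both RiboLace libraries. Next came mt-Co3, with 168, 115 and 164 CPM in the SMN immunoprecipitates and 603 and 968 CPM in the RiboLace libraries, and with a log2 fold change of -2.37 (SE 0.38) and an adjusted p of 0.000522. The third subunit, mt-Co2, was lower by a similar amount, with a log2 fold change of -2.36 (SE 0.45) and an adjusted p of 0.00330. Complex III has a single subunit of mitochondrial origin, mt-Cytb. It had 161, 184 and 83.9 CPM in the SMN immunoprecipitates and 915 and 1316 CPM in the RiboLace libraries, a log2 fold change of -3.00 (SE 0.38) with an adjusted p of 2.07e-05.

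Of the complex I subunits, mt-Nd5 had 139, 268 and 138 CPM in the SMN immunoprecipitates and 1164 and 1614 CPM in the RiboLace libraries, and mt-Nd4 had 132, 61.2 and 130.0 CPM in the SMN immunoprecipitates and 686 and 720.1 CPM in the RiboLace libraries. Their log2 fold changes were -2.95 (SE 0.36) and -2.67 (SE 0.40), with adjusted p-values of 1.15e-05 and 0.000256. The subunits mt-Nd2, mt-Nd4l and mt-Nd6 were lower as well, at log2 fold changes of -3.19, -2.76 and -2.10. Of the ATP synthase subunits, mt-Atp6 was lower at -2.07 (SE 0.47), with an adjusted p of 0.0182. The 2 tested genes that missed the threshold were mt-Atp8, with 29.2, 23.0 and 41.9 CPM in the SMN immunoprecipitates and 229 and 124 CPM in the RiboLace libraries (adjusted p = 0.0536), and mt-Nd1, at a log2 fold change of -1.60 (adjusted p = 0.0712). The remaining subunit, mt-Nd3, had too few reads to be tested.

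The mitochondrial ribosomal RNAs did not follow the messages. In a fit over all genes with noncoding ones included, mt-Rnr2, the large rRNA, had a log2 fold change of -0.36 (SE 0.38) with an adjusted p of 0.621, and mt-Rnr1, the small rRNA, -0.13 (SE 0.37) with an adjusted p of 0.883. Their share of reads was 2.86, 5.75 and 3.04% in the SMN immunoprecipitates and 4.37 and 5.03% in the RiboLace libraries, and SMN replicate 2 was above both RiboLace libraries. Mitochondrial transfer RNAs leaned lower in the same fit. Of 14 tested, 3 were lower and 0 higher, beside 4.67% lower of all genes. Their median was -1.27, and 2 of the 14 were positive. The part of the removal of mitochondria before immunoprecipitation was not tested. Respiratory chain subunits encoded in the nucleus are translated on cytosolic ribosomes. Of 72 tested, 1 was lower and 0 higher, with a median of -0.38. The 1 called was Atp5g3, subunit c of the ATP synthase, with 139, 161 and 206 CPM in the SMN immunoprecipitates and 499 and 571 CPM in the RiboLace libraries (adjusted p = 0.0241). Without SMN replicate 2, 17 of 55 nuclear subunits were lower and 2 higher, in a fit where 10.7% of all genes were lower and 7.98% higher. The median coding length of the 72 was 433.5 bases.

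Globin messages, which come from red cells and reticulocytes in the vessels, were lower. Of 7 globin genes 4 were tested and all 4 were called lower, with a median log2 fold change of -1.55. Hba-a2, an alpha-globin, had 387, 322 and 482 CPM in the SMN immunoprecipitates and 1414 and 1688 CPM in the RiboLace libraries, a log2 fold change of -1.95 (SE 0.31) with an adjusted p of 0.000585. Its near-identical copy Hba-a1 stood at 409, 421 and 503 CPM in the SMN immunoprecipitates and 1330.5 and 1564 CPM in the RiboLace libraries, and reads may be shared between the copies. The beta-globins Hbb-bt and Hbb-bs, also a near-identical pair, were lower at log2 fold changes of -1.40 and -1.28, with adjusted p-values of 0.0160 and 0.0279. The summed level of 6 blood markers was 1776, 1707 and 2282 CPM in the SMN immunoprecipitates and 5239 and 6232 CPM in the RiboLace libraries. The IgG library had 1707 CPM and the polysome libraries 1773 and 2412 CPM. The other blood markers had next to no reads, with none of Slc4a1 in any of the 5 libraries and 5 of Alas2, all in SMN replicate 3. The part of blood left in the tissue was not tested.

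Several neuronal and nuclear messages were lower. Nrgn, neurogranin, a small calmodulin-binding protein of forebrain dendrites, had 175, 130.2 and 298 CPM in the SMN immunoprecipitates and 998 and 819 CPM in the RiboLace libraries, a log2 fold change of -2.13 (SE 0.37) with an adjusted p of 0.00128. Hmgb1, an abundant DNA-bending protein of chromatin, had 51.2, 30.6 and 33.6 CPM in the SMN immunoprecipitates and 208 and 248 CPM in the RiboLace libraries. All 3 SMN libraries were far below both RiboLace libraries, with a log2 fold change of -2.55 (SE 0.53) and an adjusted p of 0.00926. Ncl, nucleolin, which binds pre-ribosomal RNA, had 212, 237 and 260.1 CPM in the SMN immunoprecipitates and 603 and 795 CPM in the RiboLace libraries, a log2 fold change of -1.55 (SE 0.35) with an adjusted p of 0.0195. It was the 1 gene called of 27 hnRNP and neuronal RNA-binding genes, whose median was -0.74. Zfp488, a transcriptional regulator of oligodendrocytes, had 109.6, 38.3 and 8.39 CPM in the SMN immunoprecipitates and 270.2 and 323 CPM in the RiboLace libraries, with a wide spread among SMN libraries and an adjusted p of 0.0241.

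Further lower genes were Ptms, parathymosin, Ywhae, a 14-3-3 adaptor, Mt3, the brain metallothionein, and Cnbp, a nucleic acid-binding zinc finger protein. Their log2 fold changes were -1.53, -1.29, -1.87 and -1.96, with adjusted p-values of 0.0150, 0.0216, 0.0364 and 0.0463. Each of the 4 had a coding region under 1000 bases, and the call of Cnbp was lost in 7 of 16 alternatives. Hsd3b2, of a family of closely related steroid dehydrogenases whose copies may share reads, had 21.9, 23.0 and 16.8 CPM in the SMN immunoprecipitates and 249 and 298 CPM in the RiboLace libraries. There were 64.0 CPM in IgG and 3.91 and 4.05 CPM in the polysome libraries, so RiboLace stood above all other preparations (log2 fold change -3.71, adjusted p = 0.000256).

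The same order, RiboLace above the other preparations, held for several genes with repeat-like or rRNA-like counts. Tmem38b, an intracellular cation channel, had 395, 352 and 273 CPM in the SMN immunoprecipitates and 1081 and 1366 CPM in the RiboLace libraries, while the polysome libraries had 32.9 and 33.6 CPM. Lars2, the mitochondrial leucyl-tRNA synthetase, had 541, 919 and 453 CPM in the SMN immunoprecipitates and 1518 and 1639 CPM in the RiboLace libraries, while the polysome libraries had 60.3 and 53.4 CPM. Both passed, with adjusted p-values of 0.00128 and 0.0392, and they were the 2 genes called of 7 in that list, although the call of Lars2 was lost in 8 of 16 alternatives. The predicted gene Gm10800 had 7.31, 0 and 16.8 CPM in the SMN immunoprecipitates and 1019 and 1018 CPM in the RiboLace libraries, against 1.67 and 4.05 CPM in the polysome libraries. Its log2 fold change of -6.57 (SE 0.52) was the most negative of the 31 (adjusted p = 1.33e-08). The predicted genes Gm17535, Gm10719, Gm10717 and Gm10715, also lower, complete the 31, and they were named after their values were seen.

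**Figure D3:**
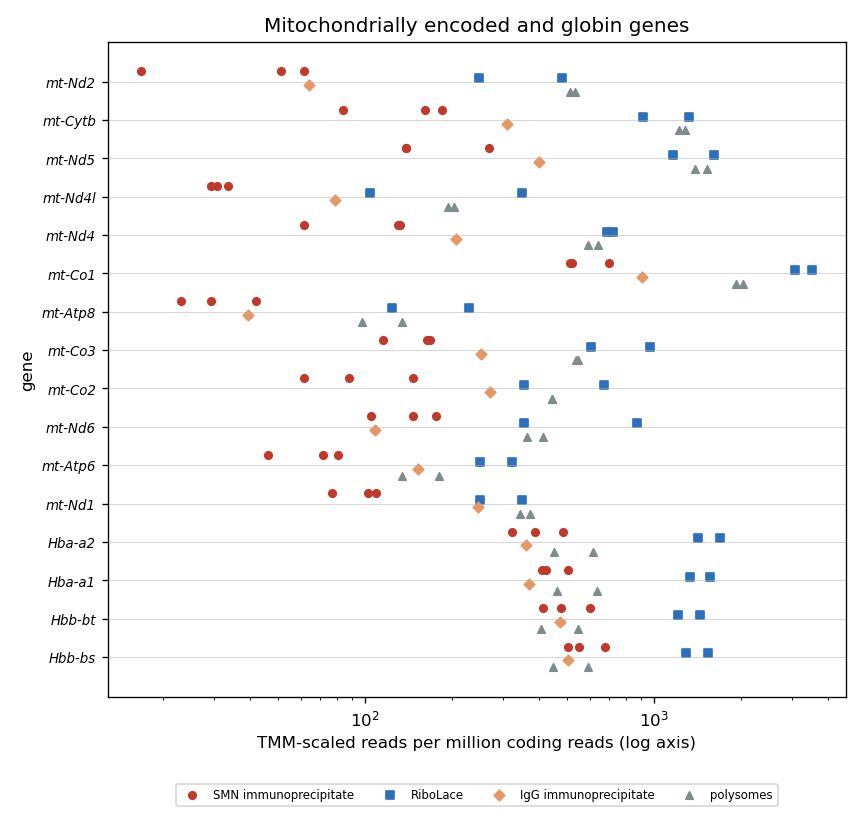
CPM per library (log axis) of the 12 tested mitochondrially encoded genes, of which mt-Atp8 and mt-Nd1 did not pass the test, and of the 4 tested globins, with a point for each SMN, RiboLace, IgG and polysome library. The 3 SMN points lie below both RiboLace points in each gene.

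Many groups that bear on SMA or on translation had no called gene. In simulated counts most genes with a known 2-fold change were not called, so such changes could go unseen here. Of 26 genes of the SMN complex, the Sm proteins and the methylosome, 11 were tested, 0 passed, and the median was -0.21. The Gemin genes had too few reads to be tested. Small-subunit ribosomal proteins (27 tested, median -0.33) and large-subunit ones (37 tested, median -0.06) had no called member. The same held for 14 translation elongation genes (median -0.34), 25 initiation factors (median -0.19), 63 core histones (median -0.29) and 7 linker histones (median -0.01). Eef2, the elongation factor that moves the ribosome along the message, had 2989, 3223 and 2475 CPM in the SMN immunoprecipitates and 1372 and 1316 CPM in the RiboLace libraries. Its groups did not overlap, and its adjusted p was 0.0644. Synaptic vesicle genes (24 tested, median -0.07), growth cone genes (19 tested, median -0.25), glycolytic enzymes (16 tested, median 0.22) and adhesion and guidance genes (25 tested, median 0.48) also had 0 called. Of 22 tested SMA modifiers and motor neuron disease genes, Dync1h1 was the 1 called, and the median was -0.43.

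Leaving out SMN replicate 2 raised the calls over all genes to 7.98% higher and 10.7% lower, and the counts of that fit are to be read beside these shares. Genes of the SMN complex, the Sm proteins and the methylosome then had 1 higher, Smn1, and 3 lower, Snrpd3, Snrpd2 and Snrpn, of 9. SMA modifiers and motor neuron disease genes had 4 higher and 6 lower of 19. Growth cone genes had 8 lower and 2 higher of 18, and hnRNP and RNA-binding genes 7 lower and 1 higher of 22. Core histones, with 5 lower and 0 higher of 63, were called no more often than genes at large. Collagen and matrix genes had 11 higher and 0 lower of 19, and the 4 globins stayed lower. In the longest length class 85 of 251 genes were then higher and 1 lower, and in the shortest class 2 of 268 were higher and 89 lower.

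**Figure D4:**
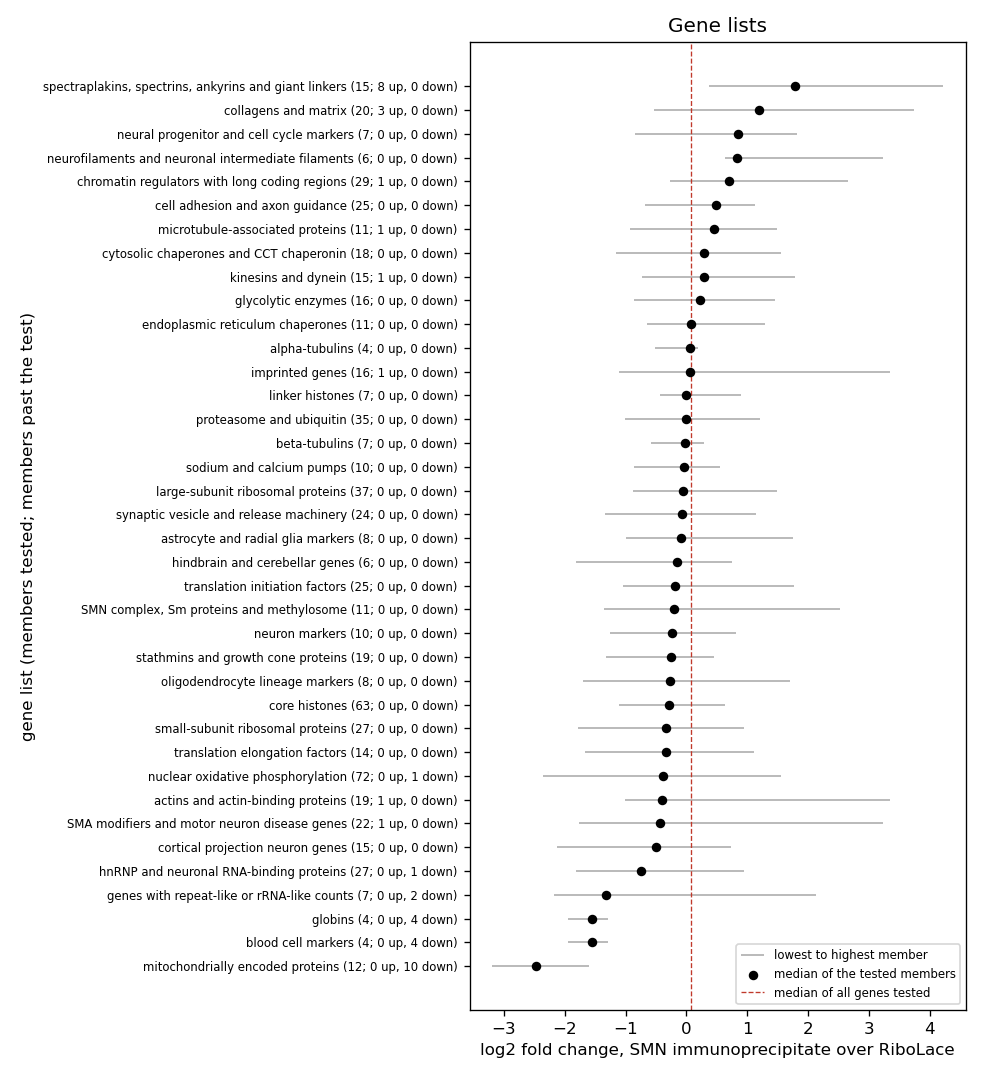
Log2 fold change, SMN immunoprecipitate over RiboLace, of the tested genes of each list, with the list's median marked. Giant linkers (median 1.78) and collagens (1.19) lie to the right, and globins (-1.55) and mitochondrially encoded proteins (-2.47) to the left of the median of all genes (0.07).

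The same 4013 genes were also set against the 1 IgG immunoprecipitate, which received no SMN antibody and takes its spread from the other libraries. Here 0 genes were higher and 1 was lower at an adjusted p under 0.05 (0.0249% of the genes), by edgeR's quasi-likelihood test. That gene, the predicted gene Gm21887, had 65.8, 84.2 and 96.5 CPM in the SMN immunoprecipitates and 467 CPM in the IgG library. Without adjustment, 67 genes were higher and 30 lower at p under 0.05. DESeq2 called 0 genes and limma-voom 1. Without SMN replicate 2, 2 were higher, Smn1 and Hap1, and 4 were lower, Erdr1, Gm21887, mt-Cytb and mt-Nd5. Of the 58 genes called against RiboLace, 0 were called against IgG with all SMN libraries kept. Without SMN replicate 2, mt-Cytb and mt-Nd5 of the 58 were called lower than IgG. For Dbn1, Col3a1 and Sptbn1 the IgG library stood at 4118, 1515 and 5667 CPM, above the highest SMN library in each case. The spread between IgG preparations was not measured.

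Noncoding RNAs made up about the same part of both captures but in different proportions. When all genes were fitted, each represented by 1 transcript, 5011 were tested, 321 were higher (6.41%) and 234 lower (4.67%), with a median of 0.07. Small nuclear RNAs were taken as labelled, a class that includes RNAs outside the spliceosome such as U7. They were not sorted by whether SMN equips them with Sm proteins. The class took 9.82, 10.7 and 10.8% of reads in the SMN immunoprecipitates and 6.80 and 8.14% in the RiboLace libraries. The IgG library was the highest at 13.1%, and the polysome libraries had 0.397 and 0.314%. Of 1382 snRNA genes 354 passed the filter, and 164 were called higher and 9 lower, but this count was unstable. DESeq2 called 14 and limma-voom 6 higher, and the count was 9 without RiboLace replicate 1, 19 without RiboLace replicate 2 and 83 without SMN replicate 3. Many of these genes are near-identical copies that may share reads, and a gene could pass the filter through the SMN libraries alone. Rnu7, the U7 snRNA that processes histone messages, had 177, 251 and 168 CPM in the SMN immunoprecipitates and 14.4 and 34.4 CPM in the RiboLace libraries, a log2 fold change of 3.02 (SE 0.65) with an adjusted p of 0.00432.

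Small nucleolar RNAs, which guide the modification of ribosomal RNA, took 3.19, 3.61 and 4.17% of reads in the SMN immunoprecipitates and 2.06 and 1.93% in the RiboLace libraries. IgG stood at 5.05% and the polysome libraries at 0.193 and 0.189%. Of 211 tested genes 65 were called higher and 4 lower, and 28 of the 65 had no RiboLace read. The median of the class was 1.74 at a minimum count of 10 and -0.11 at a minimum count of 25, so its direction depended on the filter. Leaving out SMN replicate 1, 2 or 3 gave a median of 0.10, 0.15 or -0.22. Without RiboLace replicate 1 the higher genes numbered 10, without RiboLace replicate 2 they numbered 6, and without SMN replicate 2 or 3 they numbered 43 or 32. Rnu3b1, a U3 RNA of early ribosomal RNA processing, had 695, 704 and 646 CPM in the SMN immunoprecipitates and 187 and 172 CPM in the RiboLace libraries, with a log2 fold change of 1.92 (SE 0.38) and an adjusted p of 0.00209. Members of other small RNA families went the other way. Scarna10, a guide RNA of the Cajal body, had 39.4, 49.1 and 65.9 CPM in the SMN immunoprecipitates and 418 and 413 CPM in the RiboLace libraries. Rmrp, the RNA of RNase MRP, had 557, 1343 and 588 CPM in the SMN immunoprecipitates and 2721 and 3095 CPM in the RiboLace libraries. Their log2 fold changes were -2.95 (SE 0.40) and -1.82 (SE 0.35), with adjusted p-values of 2.70e-05 and 0.00167.

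The microRNA genes that were called were mostly lower. MicroRNAs are short RNAs that steer Argonaute proteins to messages through their seed, bases 2 to 8 from the 5′ end. They took 0.657, 0.700 and 0.740% of reads in the SMN immunoprecipitates and 1.99 and 1.89% in the RiboLace libraries, without overlap. In IgG they took 0.824% and in the polysome libraries 0.0742 and 0.0751%. Of 2193 microRNA genes 93 were tested, 48 were lower and 2 higher, with a median log2 fold change of -2.08. A gene with few reads in the SMN libraries could pass the filter through the RiboLace libraries alone, which favours the lower direction. The class median thus depends in part on the filter. With no filter 594 were tested, 55 were lower and 2 higher, and the median was negative but less so. At a minimum count of 25, with 27 tested, it was -2.14. Across the alternatives the number of lower genes was 37 with DESeq2 and 48 with limma-voom, 9 without RiboLace replicate 1 and 14 without RiboLace replicate 2. Of the 48 lower genes, 34 matched a RefSeq entry by symbol.

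The mature sequences of a few lower microRNAs are printed with the seed in capitals, since 6 of them fall into 2 shared-seed families and miR-9-5p, miR-125b-5p and miR-451a come from genes described with their values. They come from RefSeq (GRCm38.p6), and the genes were chosen after their values were seen. The count table holds hairpin genes, so the arm that was sequenced is unknown, and the arm shown is the one each family is known by.
let-7b-5p: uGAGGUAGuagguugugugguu
let-7c-5p: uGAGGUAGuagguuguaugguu
let-7d-5p: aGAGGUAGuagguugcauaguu
miR-17-5p: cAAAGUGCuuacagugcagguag
miR-20a-5p: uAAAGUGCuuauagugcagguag
miR-93-5p: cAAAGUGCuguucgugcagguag
miR-9-5p: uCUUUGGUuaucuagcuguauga
miR-125b-5p: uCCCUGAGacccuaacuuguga
miR-451a: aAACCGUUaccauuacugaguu
The mature let-7b-5p lies at chr15:85707325-85707346 on the plus strand, let-7c-5p at chr16:77599672-77599693 on the plus strand and let-7d-5p at chr13:48536078-48536099 on the minus strand. The mature miR-17-5p and miR-20a-5p lie in 1 cluster at chr14:115043684-115043706 and chr14:115044183-115044205 on the plus strand, and miR-93-5p at chr5:138165574-138165596 on the minus strand.

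The let-7 family, which restrains proliferation as tissues mature, shares the seed GAGGUAG. Mirlet7b had 44.3, 43.7 and 33.0 CPM in the SMN immunoprecipitates and 202 and 189 CPM in the RiboLace libraries, with a log2 fold change of -2.29 (SE 0.47) and an adjusted p of 0.00305. Mirlet7c-1 and Mirlet7d were lower at log2 fold changes of -1.77 and -2.80, with adjusted p-values of 0.0305 and 0.0422. The seed AAAGUGC is shared by Mir17, Mir20a and Mir93, members of paralogous clusters known for promoting proliferation. These were lower at -2.59, -3.10 and -2.72, with adjusted p-values of 0.0151, 0.0123 and 0.0170. The host transcript Mir17hg, a long noncoding RNA, had 49.3, 49.1 and 44.0 CPM in the SMN immunoprecipitates and 432 and 396 CPM in the RiboLace libraries, a log2 fold change of -3.12 (SE 0.39) with an adjusted p of 1.25e-05. Its model overlaps the hairpins, so that the same reads may stand behind both.

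Neural microRNAs and a red-cell one were lower too. Mir9-3, a gene for the brain-enriched miR-9, had 64.1, 32.8 and 55.0 CPM in the SMN immunoprecipitates and 331 and 309.5 CPM in the RiboLace libraries, with a log2 fold change of -2.63 (SE 0.43) and an adjusted p of 0.000259. Its copy Mir9-2 gives the same mature RNA and may share its reads. Mir125b-2, for the neuronal miR-125b, was lower at -2.99 (SE 0.56) with an adjusted p of 0.00141. Mir451a, the microRNA of erythroid cells, had 19.7, 27.3 and 30.2 CPM in the SMN immunoprecipitates and 86.4 and 138 CPM in the RiboLace libraries, with a log2 fold change of -2.04 (SE 0.65) and an adjusted p of 0.0426, the same direction as the globin messages.

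Long intergenic noncoding RNAs were called in both directions but leaned lower, with 5 higher and 14 lower of 27 tested. Over all genes of that fit 6.41% were higher and 4.67% lower. The median log2 fold change of the class was -2.06, and 9 of the 27 were positive. A gene could pass the filter through 1 group alone. Gm26917 and Rian were among the higher ones. Gm26917, a predicted gene with no assigned role, had 404, 661 and 679 reads in the SMN immunoprecipitates and 3 and 4 reads in the RiboLace libraries, a log2 fold change of 5.48 (SE 0.51) with an adjusted p of 2.42e-07. The IgG library had 1309 reads of it. Rian, a maternally expressed imprinted transcript that hosts small nucleolar RNAs, had 236, 300.3 and 387 CPM in the SMN immunoprecipitates and 43.2 and 51.6 CPM in the RiboLace libraries, with a log2 fold change of 2.70 (SE 0.54) and an adjusted p of 0.00245. Among structured RNAs, Rpph1, the RNA of RNase P, had 207, 1048 and 313 CPM in the SMN immunoprecipitates and 1714 and 2132 CPM in the RiboLace libraries. Its log2 fold change was -1.89 (SE 0.44) with an adjusted p of 0.00732.

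**Figure D5:**
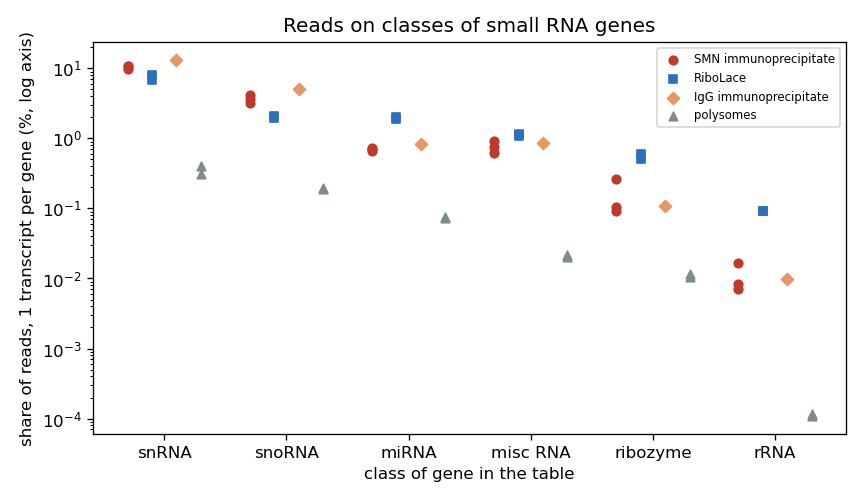
Percent of reads on 1 transcript per gene (log axis) taken by 6 classes of small RNA genes, with a point for each library. MicroRNA reads are at most 0.740% in the SMN immunoprecipitates and at least 1.89% in the RiboLace libraries, while small nuclear and small nucleolar RNA reads are higher in the SMN immunoprecipitates.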

How the data were processed

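The deposited table holds raw counts of footprint reads per Ensembl transcript for 8 libraries, with coding and UTR lengths, per the file headers. The tools Trimmomatic 0.36, Bowtie2 2.2.6 and SAMtools and the build GRCm38.p4 are those of the submitters' processing notes. The treatment of multiply matching reads is not given in the sources used. No column of another series was present.

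Counts of 1 protein-coding transcript per gene were tested with edgeR 4.0.16 under R 4.3.3 (two-sided robust quasi-likelihood test, TMM, filterByExpr minimum count 10, Benjamini-Hochberg adjusted p under 0.05) on the 3 SMN and 2 RiboLace libraries, with no covariate. The IgG library was added in a separate fit. CPM are TMM-scaled and relative to the reads on coding genes, or on all genes for noncoding RNAs. Lists were described by counts and medians. Genes were named by rule: Smn1, the called genes of largest change or smallest p, and members of lists. Huwe1, Trio, Lrp1, Wdfy3, Fasn, Cx3cl1, Wdr6, Ptms, Ywhae, Mt3, Cnbp, Sptan1 and Col1a2, and the noncoding genes, were named outside it after their values were seen. A called gene is not reported here. Members and lists were chosen with earlier results of these data known. p-values measure the spread between these libraries. Fits were tested on simulated data. Alternatives were DESeq2 1.42.0, limma-voom (limma 3.58.1), other filters, scaling and transcripts, a replicate block and each library left out. The numbers were not treated as pairs. Same-numbered SMN and RiboLace libraries deviated from their group means with correlations of -0.08 and -0.11. With 2 RiboLace libraries, whose deviations mirror each other, these values cannot settle whether the numbers are pairs. Python 3.11.15, pandas 2.3.3 and matplotlib 3.10.9 read the table and drew the plots.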

Additional observations from a re-analysis of the deposited data

How the results depend on the processing

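The 58 called genes kept their direction in every alternative in which they were tested, up to 16 per gene. Counted over genes and alternatives that made 903 values, 702 past the threshold and 201 not. Col3a1, Dbn1, Sptbn1, Ank2, mt-Nd4, mt-Nd5, mt-Co1, mt-Cytb and Gm10800 were called in every alternative that was run. Genes higher, 27 as reported, numbered 67 with no filter, 46 with all 8 libraries in 1 fit and 12 with limma-voom. With all genes included, 321 were higher and 234 lower. Leaving out 1 library at a time gave 4 to 189 higher and 7 to 253 lower. Both extremes at the low end came from leaving out a RiboLace library. With the replicate number as a block, a pairing that the data cannot settle, 12 genes were higher and 16 lower. DESeq2 gave 26 higher and 26 lower, with no adjusted p for 2567 genes. Genes called against IgG, 1 as reported, numbered 0 with DESeq2 and at a minimum count of 25, and 0 to 6 with 1 SMN library left out. For noncoding classes the alternatives were chosen after seeing the data. snRNA genes higher numbered 14 with DESeq2, 6 with limma-voom, 78 with the replicate block and 9 to 209 with 1 library left out. snoRNA genes higher numbered 16 with DESeq2, 110 with no filter, 24 at a minimum count of 25, 12 with limma-voom and 6 to 46 with 1 library left out. miRNA genes lower numbered 20 at a minimum count of 25, 24 with the replicate block and 9 to 49 with 1 library left out. Depth limited the RiboLace side, where 3 reads stood at 62.7 and 76.2 CPM.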
